A study of Mus musculus with 3 samples.

Results

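The 30 genes described here encode the peroxisome proliferator-activated receptors (PPARs), their coactivators and targets, and the proteins that carry fatty acids into mitochondria and oxidise them. They were taken by symbol from a list, and all 30 were found among the 32285 genes of the deposited tables. Their levels were read in cells of the adventitia, the outermost coat of the mouse aorta, sorted computationally into a fibroblast class, a macrophage class and the remaining cells. Single-cell RNA was collected from 3 groups: Vehicle, which received saline; AngII, which received angiotensin II, a hormone that raises blood pressure; and AngII_VWR, which received angiotensin II and ran voluntarily on a wheel. The labels named 9 mice, 3 in each group, and 1 library per group, and did not say how the 3 mice were joined. Strain, age, dose and length of treatment were not given in the labels. With 1 library per group there was no replicate, so no difference between groups was tested, and all intervals are 95% intervals that cover counting error alone.

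Fatty acids are first joined to coenzyme A, pass the mitochondrial membranes as carnitine esters, and are then shortened step by step in the β-oxidation spiral, which hands its electrons to the respiratory chain. PPARs are nuclear receptors that bind fatty acids, pair with retinoid X receptors and raise transcription of many genes of this pathway. PPARγ is also the receptor that drives fat cell formation and is expressed in some macrophages, while PPARδ and PPARα are the members best known for switching on fatty acid oxidation.

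The deposited tables held 45241 barcodes, and 13861, 9899 and 19019 cells remained in Vehicle, AngII and AngII_VWR after filtering, with a median of 10174, 13460 and 4638 UMIs (molecules counted once each). All triplets of values below are in this order. Cells with at least 1% of their UMIs from the collagen and proteoglycan genes Col1a1, Col1a2, Dcn and Lum formed the fibroblast class, with 7431, 6595 and 12933 cells. Cells with at least 0.3% from the complement genes C1qa, C1qb and C1qc formed the macrophage class, with 2794, 2065 and 3460 cells. Cells past both limits, 179, 157 and 536, were left out of both classes, and the rest held 3457, 1082 and 2090 cells. These limits cut a range: 4967, 1601 and 5620 cells lay between 0.5 and 2% of the fibroblast genes, and 472, 207 and 1283 lay between 0.15 and 0.6% of the macrophage genes. Markers that the limits did not use fitted both names. The summed level of the fibroblast markers Pdgfra, Col3a1 and Mfap5 was 6982, 11212 and 9298 CPM (UMIs per 1000000 UMIs of the class) in the fibroblast class and 307.5, 205 and 589 CPM in the macrophage class. The summed level of the macrophage markers Adgre1, Csf1r, Cd68 and Mrc1 was 4054, 4475 and 3730 CPM in the macrophage class. In the fibroblast class it was 22.7, 25.7 and 77.7 CPM, so RNA of the other class was most abundant in AngII_VWR in both classes. The AngII_VWR library was also the shallowest per cell and the only one written by another software version, and neither can be told apart from its treatment. Haemoglobin genes, which mark red blood cells, summed to 2454, 623 and 254 CPM in the fibroblast class and 3338, 662 and 548 CPM in the macrophage class, highest in Vehicle in both, and their part in the results was not tested. Between 39 and 72 cell barcodes were shared by any pair of libraries.

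Levels were set side by side as AngII over Vehicle, which addresses the hormone, and AngII_VWR over AngII, which addresses running under the hormone. Both use the AngII library, so the comparisons are not independent. Ratios were log2 ratios of CPM + 1, with the median ratio of all tested genes subtracted, because that median was −0.08 and −0.03 for AngII over Vehicle in fibroblasts and macrophages but 0.10 and 0.18 for AngII_VWR over AngII. A gene was tested with at least 5 CPM in either library and at least 10 UMIs over both, and it was called higher or lower past 1.5-fold relative to that median gene. Folds in the text are plain ratios of CPM. A level in CPM here is not divided by transcript length, so levels are compared between libraries and classes and not between genes.

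Promoter stretches of Pdk4 and Plin2 are shown because Pdk4 had the largest difference under running among the members tested in fibroblasts and macrophages, and Plin2 held one of the closest matches to a PPAR response element (DR1), a direct repeat of AGGTCA with any 1 base between the copies. Both come from RefSeq, build GRCm38.p6, are written 5′ to 3′ on the minus strand on which the genes lie, and stop before the first base of the annotated gene. Capitals mark the match to the repeat, which in Plin2 lies on the opposite strand, and Pdk4 has none.
Pdk4, chr6:5496310-5496528: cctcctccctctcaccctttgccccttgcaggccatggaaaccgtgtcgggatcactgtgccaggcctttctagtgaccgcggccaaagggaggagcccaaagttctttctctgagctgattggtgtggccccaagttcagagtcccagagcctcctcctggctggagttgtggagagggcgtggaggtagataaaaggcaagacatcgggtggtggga
Plin2, chr4:86670061-86670309: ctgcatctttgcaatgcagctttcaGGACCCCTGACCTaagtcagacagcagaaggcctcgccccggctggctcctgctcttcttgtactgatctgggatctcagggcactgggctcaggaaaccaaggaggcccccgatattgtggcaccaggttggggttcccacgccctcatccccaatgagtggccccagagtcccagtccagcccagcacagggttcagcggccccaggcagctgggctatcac
RefSeq promoter windows of 300 bases, 250 before and 50 after the start, were on hand for 26 of the 30 members, 29 windows in all. A match, on either strand and with at most 2 mismatches among the 12 fixed letters, stood in 3 of these 29 windows (10.3%) and in 1268 of all 32851 windows (3.86%). The Plin2 match reads AGGTCAggGGTCc on its own strand at chr4:86670272-86670284, 212 bases upstream of the gene, with capitals for the letters that match. The Etfa match reads AGGgCAaAGGTaA at chr9:55512308-55512320, 65 bases upstream. The Slc25a20 match reads AGGTgAaAGGTCg at chr9:108662142-108662154 and starts at base 55 inside the gene. These are matches of letters and show no binding, and a window without one shows only that the letters are not in it. Windows for Acaa2, Angptl4, Decr1 and Ppargc1b were not used here.

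In AngII over Vehicle, the members called in the fibroblast and macrophage classes were 2 receptors, a synthetase and a fatty acid carrier. No enzyme of the β-oxidation spiral was called in these classes. In the fibroblast class 26 of the 30 members were tested, and 3 were called higher, Ppard, Pparg and Acsl4, while none was called lower. Of all 10493 genes tested there, 8.05% were called higher and 3.94% lower. In the macrophage class 27 members were tested, Pparg was called higher and Fabp3 lower, where 6.68% of 10146 genes were called higher and 8.91% lower. The median relative log2 ratio of the members was 0.03 in fibroblasts and 0.06 in macrophages, next to the median gene at 0 by construction.

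In AngII_VWR over AngII, 2 of 26 tested members were called higher in fibroblasts, Pdk4 and Ucp2, and 3 were called lower, Pparg, Acsl4 and Acaa1a. The share of all 10638 tested genes was 4.79% higher and 6.66% lower. In macrophages Angptl4 was called higher and 5 of 26 tested members were called lower, Ppard, Pparg, Ucp2, Acot2 and Acaa1a, where 9.6% of 10368 genes were called higher and 8.27% lower. The members' median relative log2 ratio was −0.20 in fibroblasts, with 9 of 26 above the median gene, and −0.23 in macrophages, with 6 of 26 above it. The median of all tested genes is 0 on this scale.

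**Figure D1:**
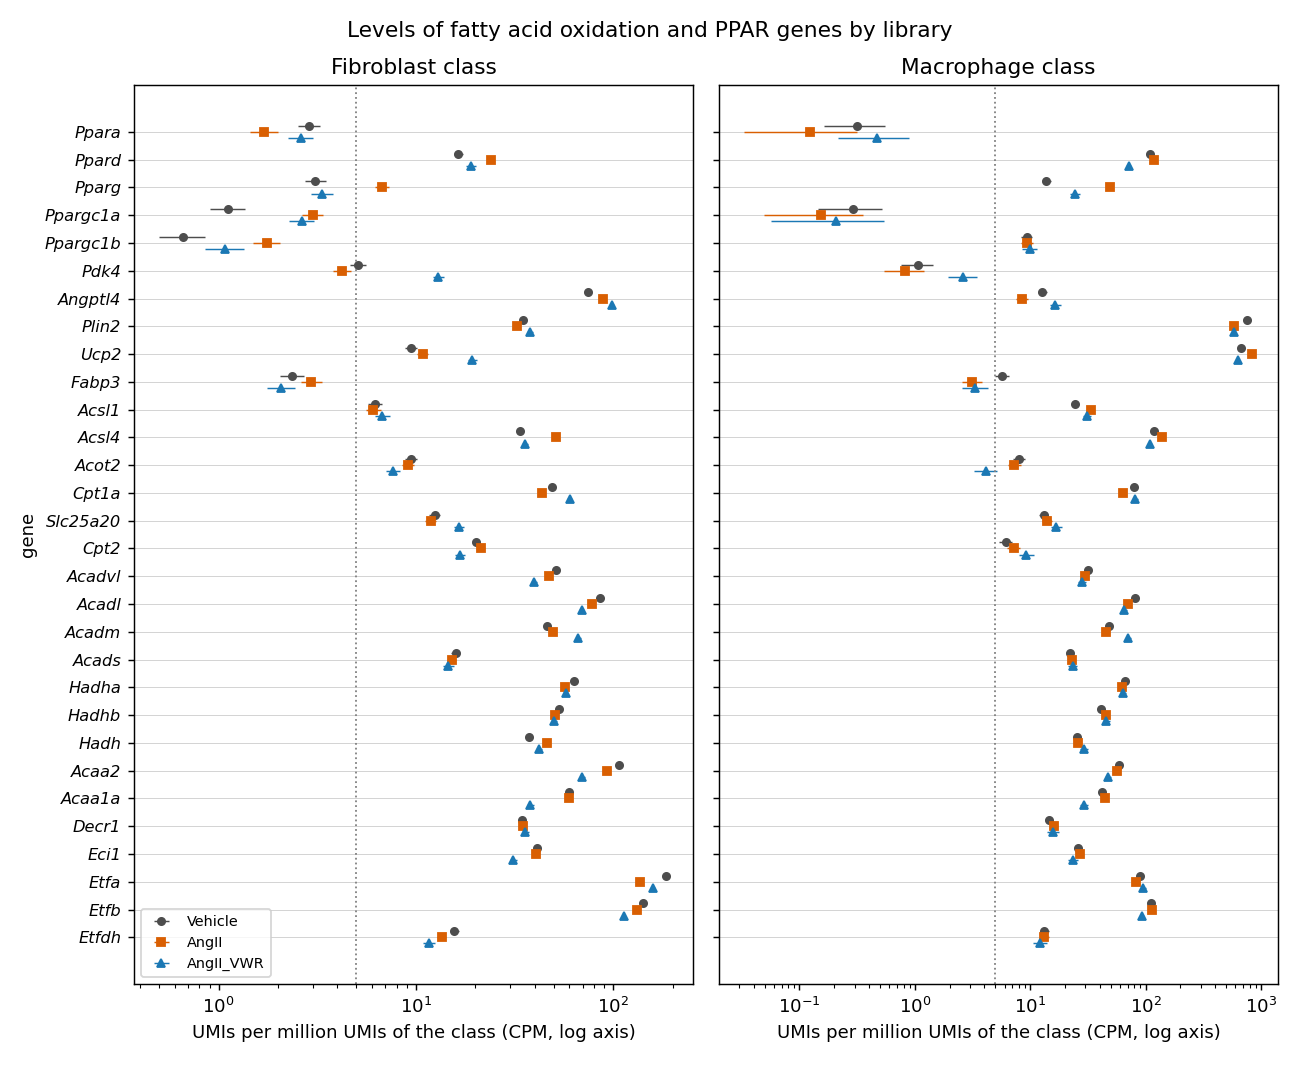
Levels of the 30 genes in the fibroblast class (left) and macrophage class (right), in UMIs per 1000000 UMIs of the class on a log axis, with 1 point per library, exact Poisson 95% intervals as bars and a dotted line at 5 CPM. Pparg in macrophages stands at 13.8, 49.4 and 24.4 CPM in Vehicle, AngII and AngII_VWR, and Pdk4 in fibroblasts at 5.10, 4.22 and 13.0 CPM.

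**Figure D2:**
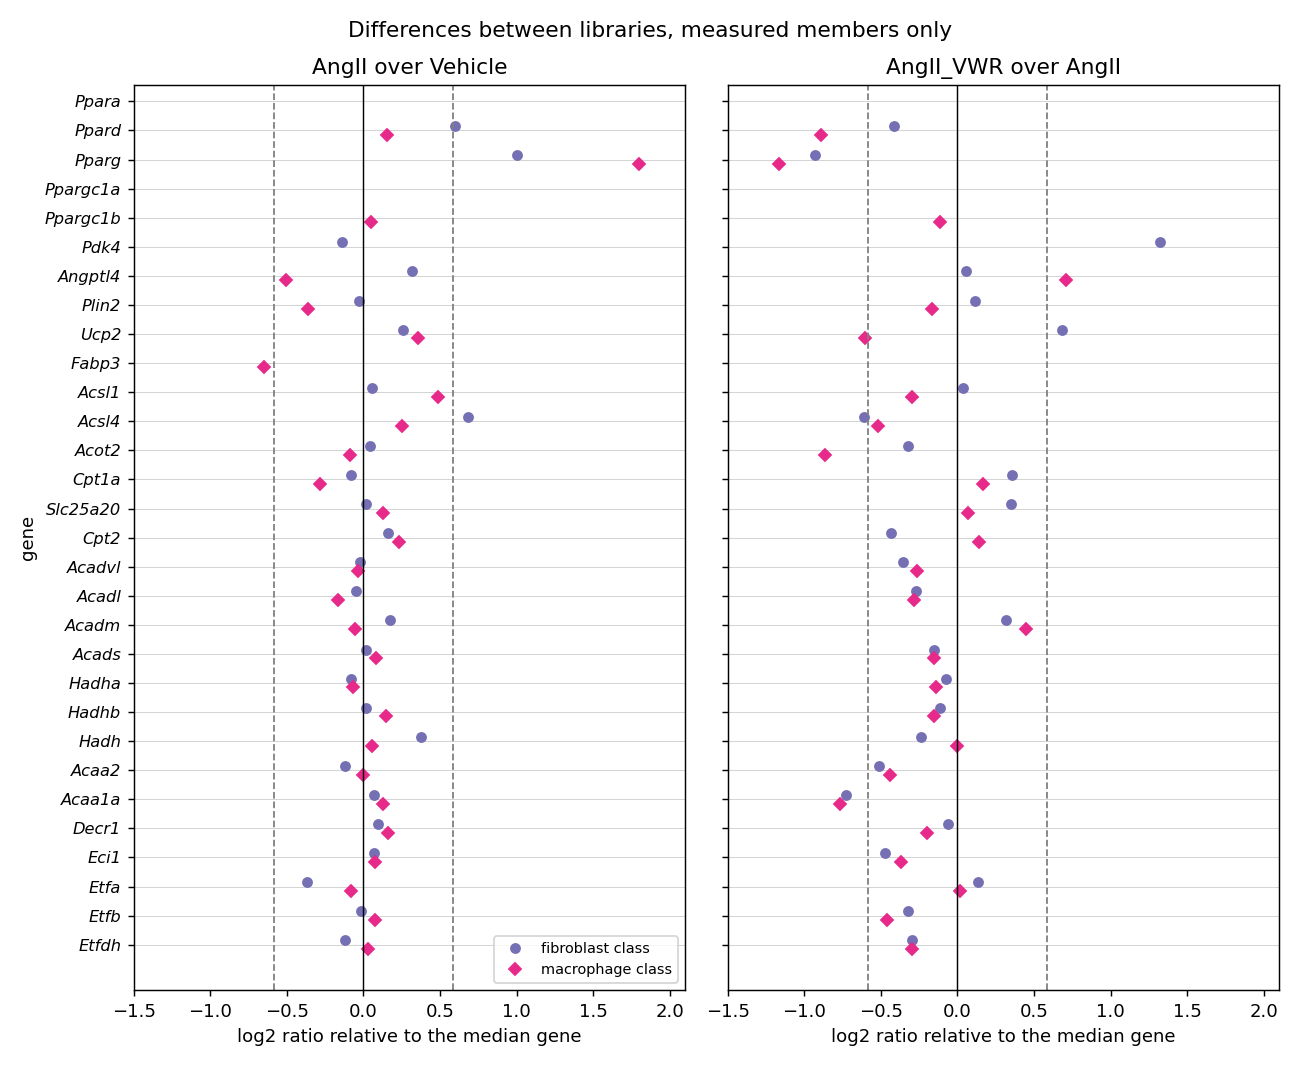
Log2 ratios relative to the median gene for AngII over Vehicle (left) and AngII_VWR over AngII (right), for members tested in the fibroblast class (circles) and macrophage class (diamonds), with dashed lines at 1.5-fold. In AngII over Vehicle the largest value is 1.80 for Pparg in macrophages, and in AngII_VWR over AngII it is 1.33 for Pdk4 in fibroblasts.

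Among the receptors, Pparg showed the largest differences. Its macrophage level was 13.8 CPM (12.6 to 15.0) in Vehicle, 49.4 (47.0 to 51.9) in AngII and 24.4 (22.3 to 26.7) in AngII_VWR, from 523, 1613 and 467 UMIs. The level in AngII was 3.58-fold (3.24 to 3.96) higher than in Vehicle, and in AngII_VWR it was 2.02-fold (1.82 to 2.25) lower than in AngII, which still left it above Vehicle. In fibroblasts it stood at 3.10 CPM (2.74 to 3.49) in Vehicle, 6.75 (6.23 to 7.30) in AngII and 3.35 (2.94 to 3.80) in AngII_VWR, from 272, 617 and 239 UMIs. There AngII was 2.18-fold (1.89 to 2.52) above Vehicle, and AngII_VWR was 2.01-fold (1.73 to 2.35) below AngII with an interval that overlapped that of Vehicle. The level in fibroblasts was 22.4, 13.7 and 13.7% of that in macrophages. Pparg overlaps an antisense gene, Gm44079, on the other strand, and whether counting used strand was not given in the sources used here.

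Pparg in macrophages was read again within subsets, because their shares differed between the libraries. Cells with at least 0.5% of UMIs from the antigen presentation genes H2-Ab1, H2-Aa and H2-Eb1, and without the resident markers, made up 4.44, 34.3 and 17.0% of the macrophage class. Cells with at least 0.1% from the resident markers Lyve1, Folr2, Timd4 and Cd163 alone made up 70.4, 33.5 and 53.6%. Pparg stood at 50.5, 91.7 and 56.4 CPM in the MHC class II subset and at 9.90, 22.3 and 11.9 CPM in the resident subset. Both subsets had the highest level in AngII, and the MHC class II subset was above the resident subset in each library. In cells past both subset limits it stood at 19.3, 35.6 and 28.4 CPM, and in cells past neither at 25.4, 26.1 and 30.6 CPM, where AngII and Vehicle were close. With equal weight for the 4 subsets, an alternative chosen after the data were seen, the relative log2 ratio of AngII over Vehicle was 0.73 in place of 1.80, and that of AngII_VWR over AngII was −0.60 in place of −1.17. Both differences were called with either weighting.

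In the fibroblast class, cells were divided by activation genes (Comp, Cthrc1, Postn, Tnc, Thbs4 and Col8a1), progenitor genes (Pi16, Cd55, Dpp4 and Sema3c), each at 0.2% of UMIs or more, or neither. Activated cells made up 3.50, 36.0 and 20.5% of the class, and progenitor cells 58.6, 24.6 and 23.3%. Pparg stood at 1.81, 6.87 and 3.27 CPM in activated cells, where Vehicle held 5 UMIs, at 2.24, 3.34 and 2.22 CPM in progenitor cells and at 5.19, 9.09 and 3.91 CPM in the others. AngII was the highest of the 3 libraries in each of these subsets. The summed level of the adipocyte markers Adipoq, Plin1, Cidec, Cfd, Lep, Retn and Car3 in the fibroblast class was 15.1, 35.1 and 23.3 CPM. In each library 2 of the 7 were at or above 5 CPM and Lep was at 0. Those 2 were Car3 at 6.04, 22.2 and 7.25 CPM and Cfd at 7.85, 9.34 and 13.0 CPM. Car3, Adipoq and Plin1 were highest in AngII, as Pparg was, but Cfd, Cidec and Retn were highest in AngII_VWR. The part of adipocyte RNA in the Pparg result was not tested. With 5% of the class's UMIs subtracted as free RNA, the relative log2 ratio of AngII over Vehicle was 0.44 in place of 1.00 and no longer called. That of AngII_VWR over AngII was −0.69 in place of −0.93 and also not called, with the level below the 5 CPM floor. The call for AngII over Vehicle was kept in 11 of 13 alternatives and that for AngII_VWR over AngII in 10.

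**Figure D3:**
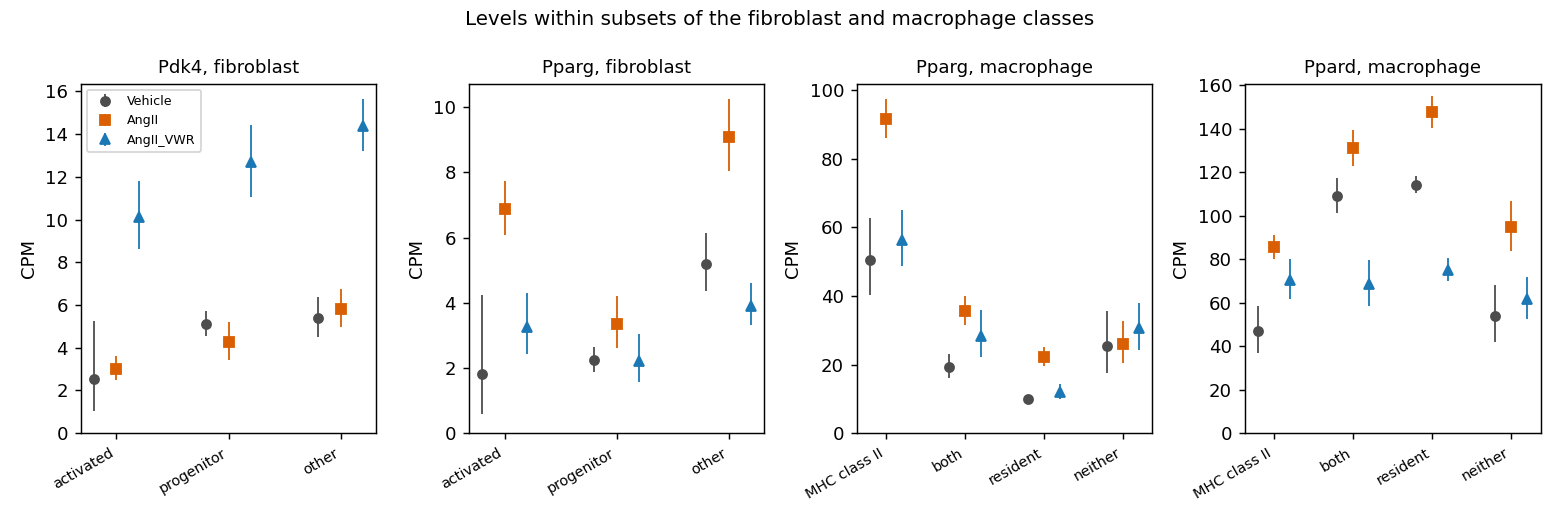
Levels of Pdk4, Pparg and Ppard in UMIs per 1000000 UMIs of the subset (CPM, linear axis from 0) within subsets of the fibroblast or macrophage class, with 1 point per library and exact Poisson 95% intervals. Pdk4 is highest in AngII_VWR in each fibroblast subset (10.1, 12.7 and 14.4 CPM), and Ppard in macrophages is lower in AngII_VWR than in AngII in each of the 4 subsets.

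Ppard, which encodes the broadly expressed PPARδ, was the other receptor with called differences. Macrophages held 108 CPM (105 to 112) in Vehicle, 118 (114 to 122) in AngII and 71.6 (67.8 to 75.5) in AngII_VWR, and AngII_VWR was 1.65-fold (1.55 to 1.75) below AngII. In the subsets the levels were 46.8, 85.4 and 70.6 CPM in MHC class II cells, 109, 131 and 68.5 CPM in cells past both limits, 114, 147 and 75.1 CPM in resident cells and 53.8, 94.8 and 61.6 CPM in cells past neither. AngII_VWR was lower than AngII in each of the 4, and AngII was higher than Vehicle in each, although over the whole class AngII exceeded Vehicle only 1.09-fold. In fibroblasts Ppard stood at 16.4, 24.0 and 19.0 CPM, and AngII was 1.46-fold (1.37 to 1.56) above Vehicle. That call had a relative log2 ratio of 0.60, just past the limit, and it was kept in 7 of 13 alternatives.

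Ppara, which encodes the receptor that fibrates activate, was below 5 CPM in both classes, at 2.88, 1.71 and 2.62 CPM in fibroblasts. Its fibroblast level was lower in AngII (1.45 to 2.00) than in Vehicle (2.54 to 3.26), but below the floor and so not tested. The interval in AngII_VWR, 2.26 to 3.03, overlapped that of Vehicle. In macrophages it gave 12, 4 and 9 UMIs, too few to compare. Ppargc1a, the coactivator PGC-1α that raises mitochondrial gene expression, stood at 1.12, 3.01 and 2.64 CPM in fibroblasts, from 98, 275 and 188 UMIs, and gave 11, 5 and 4 UMIs in macrophages. Its relative Ppargc1b was at 0.66, 1.76 and 1.08 CPM in fibroblasts. In both coactivators the fibroblast level was higher in AngII than in Vehicle with intervals that did not overlap, but below the 5 CPM floor, so neither was tested there. In macrophages Ppargc1b stood at 9.32, 9.40 and 9.89 CPM, with overlapping intervals.

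Among the PPAR targets in fibroblasts, Pdk4 differed most under running. Pdk4 encodes a kinase that switches off pyruvate dehydrogenase and so favours fatty acids over glucose as fuel. In fibroblasts it stood at 5.10 CPM (4.64 to 5.59) in Vehicle, 4.22 (3.81 to 4.67) in AngII and 13.0 (12.2 to 13.9) in AngII_VWR, from 448, 386 and 928 UMIs. AngII_VWR was 3.08-fold (2.73 to 3.48) above AngII and also above Vehicle, while the ratio of AngII to Vehicle was 0.828 and was not called. The levels were 2.54, 3.02 and 10.1 CPM in activated cells, 5.09, 4.25 and 12.7 CPM in progenitor cells and 5.38, 5.80 and 14.4 CPM in the others, so AngII_VWR was the highest library in each subset. In macrophages the level was 1.06, 0.827 and 2.62 CPM, from 40, 27 and 50 UMIs and below the floor. Over the rest Pdk4 went the other way, at 13.1, 14.3 and 9.56 CPM. There AngII_VWR was 1.49-fold (1.15 to 1.94) below AngII, which was not called. Cells of the rest with at least 1% of UMIs from the smooth muscle genes Myh11, Acta2, Tagln and Cnn1 had 26.4, 42.8 and 39.6 CPM, from 614, 15 and 46 cells, and the summed smooth muscle markers in the fibroblast class were 459, 213 and 233 CPM. The part of smooth muscle RNA in the Pdk4 result was not tested.

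Ucp2, which encodes an inner-membrane carrier of mitochondria that is abundant in immune cells, was called in opposite directions in macrophages and fibroblasts. The macrophage level was 674 CPM (666 to 682) in Vehicle, 841 (831 to 851) in AngII and 627 (616 to 638) in AngII_VWR. AngII was 1.25-fold (1.23 to 1.27) above Vehicle, which was not called, and AngII_VWR was 1.34-fold (1.31 to 1.37) below AngII, which was called relative to the median gene and kept in 8 of 13 alternatives. In fibroblasts it stood at 9.45 CPM (8.82 to 10.1) in Vehicle, 10.8 (10.2 to 11.5) in AngII and 19.3 (18.3 to 20.4) in AngII_VWR, and AngII_VWR was 1.78-fold (1.64 to 1.94) above AngII. The fibroblast level was 1.40, 1.29 and 3.09% of the macrophage level, and the macrophage check markers in fibroblasts were 0.559, 0.574 and 2.08% of their level in macrophages. With 5% of the UMIs of the class subtracted as free RNA the fibroblast value turned to −0.10, and the part of macrophage RNA in it was not tested otherwise.

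Angptl4, a secreted inhibitor of lipoprotein lipase, stood at 74.9 CPM (73.1 to 76.7) in Vehicle, 88.4 (86.5 to 90.3) in AngII and 98.5 (96.2 to 101) in AngII_VWR in fibroblasts, and no difference there was called. The macrophage level was 12.7, 8.45 and 16.5 CPM, and AngII_VWR was 1.96-fold (1.66 to 2.31) above AngII. The macrophage level was 17.0, 9.56 and 16.8% of the fibroblast level, and the fibroblast check markers in macrophages were 4.40, 1.83 and 6.34% of their level in fibroblasts. Those markers were thus also higher in AngII_VWR than in AngII. With 5% of the UMIs subtracted as free RNA the relative log2 ratio was 1.14 in place of 0.71.

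Plin2, which coats lipid droplets, stood at 763, 579.6 and 586 CPM in macrophages and 35.1, 32.5 and 37.8 CPM in fibroblasts. Its macrophage level in AngII was 1.32-fold (1.29 to 1.34) below Vehicle, and AngII_VWR and AngII differed 1.01-fold, neither of them called. Fabp3, a cytosolic fatty acid carrier known from heart and muscle, stood at 5.68, 3.15 and 3.35 CPM in macrophages, from 215, 103 and 64 UMIs, and AngII was 1.80-fold (1.42 to 2.30) below Vehicle. In resident macrophages it was 6.59, 2.86 and 3.95 CPM, and in MHC class II macrophages it rested on 2, 33 and 3 UMIs. With equal weight per subset the relative log2 ratio was −0.06 in place of −0.65. The smooth muscle cells had 29.7, 27.5 and 52.0 CPM of Fabp3, and the summed smooth muscle markers in the macrophage class were 508, 49.8 and 99.4 CPM, so they too were highest in Vehicle. Their part in the Fabp3 value was not tested. In fibroblasts Fabp3 was below the floor, at 2.36, 2.95 and 2.07 CPM.

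Activation and import of fatty acids gave a mixed picture. Acsl4, an acyl-CoA synthetase that prefers polyunsaturated fatty acids such as arachidonic acid, stood at 33.6 CPM (32.4 to 34.8) in Vehicle, 51.5 (50.1 to 53.0) in AngII and 35.7 (34.4 to 37.1) in AngII_VWR in fibroblasts. AngII was 1.53-fold (1.46 to 1.61) above Vehicle, and AngII_VWR was 1.44-fold (1.37 to 1.51) below AngII. AngII was the highest library in activated, progenitor and other fibroblasts alike, with 30.1, 53.7 and 36.7 CPM in the first, 35.5, 59.9 and 37.7 CPM in the next and 29.5, 42.5 and 34.4 CPM in the last. In macrophages Acsl4 stood at 119, 139 and 109.7 CPM, 1.16-fold for AngII over Vehicle and 1.27-fold lower in AngII_VWR than in AngII, and neither was called. Acsl1, the synthetase linked to triglyceride and oxidation, stood at 6.21, 6.09 and 6.77 CPM in fibroblasts and 24.6, 34.0 and 31.3 CPM in macrophages, with no call.

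Cpt1a, the rate-limiting carnitine acyltransferase of the outer membrane, stood at 48.9, 43.6 and 60.2 CPM in fibroblasts and 79.7, 63.7 and 81.3 CPM in macrophages. In both classes AngII was the lowest library, but no difference was called. The carnitine carrier Slc25a20 stood at 12.5, 11.9 and 16.6 CPM in fibroblasts and 13.0, 14.0 and 16.8 CPM in macrophages, highest in AngII_VWR in both and not called. Cpt2, which frees the acyl group inside the mitochondrion, stood at 20.2, 21.4 and 16.8 CPM in fibroblasts and 6.15, 7.20 and 9.26 CPM in macrophages. It was lowest in AngII_VWR in the former and highest there in the latter, again without a call. Acot2, a mitochondrial thioesterase that releases fatty acids from coenzyme A, stood at 9.42, 9.15 and 7.68 CPM in fibroblasts. In macrophages it stood at 7.97, 7.26 and 4.13 CPM, from 302, 237 and 79 UMIs, and AngII_VWR was 1.76-fold (1.36 to 2.30) below AngII. Acot2 has a close copy, Acot1, at 4.75, 5.17 and 4.29 CPM in fibroblasts, and reads shared by the copies could be lost or split in counting.

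The 4 acyl-CoA dehydrogenases, which take the first oxidation step on chains of different lengths, had no call in either class or comparison. Acadvl, for very long chains, stood at 51.1, 47.5 and 39.6 CPM in fibroblasts and 31.4, 29.9 and 28.2 CPM in macrophages. Acadl, for long chains, stood at 85.8, 78.2 and 69.4 CPM in fibroblasts and 80.5, 69.8 and 64.9 CPM in macrophages. Both were lowest in AngII_VWR in both classes. Acadm, for medium chains, went the other way and was highest in AngII_VWR, at 46.5, 49.6 and 66.6 CPM in fibroblasts and 48.6, 45.6 and 71.0 CPM in macrophages, where AngII_VWR was 1.56-fold (1.45 to 1.68) above AngII but short of the limit relative to the median gene. Acads, for short chains, stood at 16.0, 15.2 and 14.6 CPM in fibroblasts and 22.1, 22.9 and 23.4 CPM in macrophages and varied least of the 4. Acadm was above AngII in AngII_VWR in each fibroblast and macrophage subset, with 62.6 to 68.4 CPM against 46.4 to 54.8 CPM in the fibroblast subsets.

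Hadha and Hadhb encode the subunits of the trifunctional protein, which carries out the next steps on long chains, and lie head to head on chromosome 5 with 85 bases between their start sites. Hadha stood at 63.5, 56.7 and 57.6 CPM in fibroblasts and 66.9, 62.3 and 64.1 CPM in macrophages. Hadhb stood at 53.1, 50.6 and 49.96 CPM in fibroblasts and 41.4, 45.0 and 45.8 CPM in macrophages. Neither subunit was called in any of these comparisons. Hadh, the dehydrogenase for shorter chains, stood at 37.6, 46.4 and 41.9 CPM in fibroblasts and 25.4, 25.8 and 29.3 CPM in macrophages, and was not called in either class.

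The thiolases, which cut off acetyl-CoA at the end of each turn, were lowest in AngII_VWR. Acaa1a, the peroxisomal thiolase, stood at 59.9 CPM (58.3 to 61.5) in Vehicle, 59.5 (57.9 to 61.1) in AngII and 38.1 (36.7 to 39.6) in AngII_VWR in fibroblasts, and AngII_VWR was 1.56-fold (1.49 to 1.63) below AngII. In macrophages it stood at 41.9 CPM (39.8 to 44.0) in Vehicle, 44.6 (42.4 to 47.0) in AngII and 29.4 (27.1 to 32.0) in AngII_VWR, and AngII_VWR was 1.52-fold (1.37 to 1.67) below AngII. Vehicle and AngII were close in both classes. AngII_VWR was also the lowest library in activated fibroblasts at 58.4, 56.8 and 35.6 CPM, in progenitor fibroblasts at 60.9, 62.6 and 39.8 CPM and in resident macrophages at 43.1, 41.0 and 29.6 CPM. Its near copy Acaa1b was at 0.728, 0.875 and 0.673 CPM in fibroblasts. Acaa1a overlaps Myd88 and Slc22a14 on the other strand, and reads of such partners cannot be told apart if strand was not used in counting. Acaa2, the mitochondrial thiolase, stood at 107, 93.3 and 69.8 CPM in fibroblasts, where AngII was 1.15-fold (1.12 to 1.19) below Vehicle and AngII_VWR 1.34-fold (1.29 to 1.39) below AngII, with no call. Macrophages held 58.3, 56.9 and 47.3 CPM.

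The auxiliary enzymes Decr1 and Eci1 prepare unsaturated chains for the spiral. Decr1 stood at 34.7, 35.1 and 35.9 CPM in fibroblasts and 14.6, 16.0 and 15.8 CPM in macrophages and was close in all libraries of a class. Eci1 stood at 41.2, 40.8 and 31.2 CPM in fibroblasts and 26.1, 26.9 and 23.5 CPM in macrophages and was lowest in AngII_VWR in both classes, without a call. The electron transfer flavoprotein, built from Etfa and Etfb, accepts electrons from the dehydrogenases. Etfa stood at 186, 136 and 160.0 CPM in fibroblasts, where AngII was 1.37-fold (1.34 to 1.40) below Vehicle and AngII_VWR 1.18-fold (1.15 to 1.21) above AngII, and at 90.3, 83.2 and 95.5 CPM in macrophages. Etfb stood at 142, 132 and 113 CPM in fibroblasts, where AngII was 1.07-fold (1.04 to 1.10) below Vehicle and AngII_VWR 1.17-fold (1.14 to 1.21) below AngII, and at 110.5, 114 and 93.3 CPM in macrophages. Etfdh, which passes the electrons on to ubiquinone, stood at 15.7, 13.5 and 11.6 CPM in fibroblasts and 13.3, 13.3 and 12.2 CPM in macrophages. None of the 3 was called in either class. Across all steps from Acadvl to Etfdh, 14 enzymes and subunits, Acaa1a was the only one called in fibroblasts or macrophages in these comparisons. Among all tested genes, 8.05% were called higher and 3.94% lower in fibroblasts for AngII over Vehicle, and 6.68% and 8.91% in macrophages. For AngII_VWR over AngII the shares were 4.79% and 6.66% in fibroblasts and 9.6% and 8.27% in macrophages.

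Outside both classes more members were called, but these cells are a mixture whose makeup differed between the libraries. The rest held 17554, 1360 and 1517 CPM of summed smooth muscle markers and 388, 1448 and 383 CPM of summed adipocyte markers, with Adipoq at 16.9, 149 and 15.1 CPM, and endothelial markers at 159, 452 and 222 CPM. Haemoglobin genes summed to 59068, 14371 and 8114 CPM and neutrophil markers to 293, 142 and 901 CPM there. Of 29 members tested in AngII over Vehicle, 9 were called higher and 2 lower, where 18.7% of 12096 genes were called higher and 15.5% lower. In AngII_VWR over AngII none of 27 was called higher and 9 were called lower, where 8.62% of 11997 genes were called higher and 11.4% lower. Pparg stood at 21.9, 159.6 and 55.1 CPM, Ucp2 at 140.4, 519 and 303 CPM, Plin2 at 75.6, 175 and 189 CPM and Slc25a20 at 20.2, 74.1 and 56.7 CPM. Pparg, Ucp2 and Slc25a20 were highest in AngII, and all 4 were lowest in Vehicle. Fabp3 stood at 12.3, 2.45 and 4.08 CPM and was 5.02-fold (3.40 to 7.71) lower in AngII than in Vehicle, in the direction of the smooth muscle markers. The part of the makeup in these values was not tested over the mixture, and subsets gave the following.

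In cells with at least 0.3% of UMIs from the endothelial genes Pecam1, Cdh5, Egfl7 and Emcn, 32, 91 and 41 cells, Pparg stood at 149.6, 1087 and 391 CPM, from 75, 716 and 64 UMIs. Plin2 stood at 79.8, 499.6 and 159 CPM and Angptl4 at 112, 316 and 220.2 CPM in the same cells. All 3 were highest in AngII. The capillary genes Fabp4 and Gpihbp1, read after these values had been seen, were also highest in AngII there, with Fabp4 at 4162, 39648 and 21618 CPM and Gpihbp1 at 379, 2826 and 1168 CPM, and whether the same kind of endothelial cell was read in each library was not tested. Adipoq was at 0 in Vehicle and AngII_VWR and at 4.56 CPM in AngII in these cells. In cells with at least 0.2% of UMIs from T cell receptor and CD3 genes, 167, 75 and 99 of them, Ucp2 stood at 286, 407 and 306 CPM. Most of the rest, 2345, 853 and 1708 cells, belonged to none of the named subsets, and there Pparg stood at 37.4, 112 and 55.0 CPM, Ucp2 at 226, 578 and 321 CPM and Slc25a20 at 29.4, 86.1 and 60.6 CPM.

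**Figure D4:**
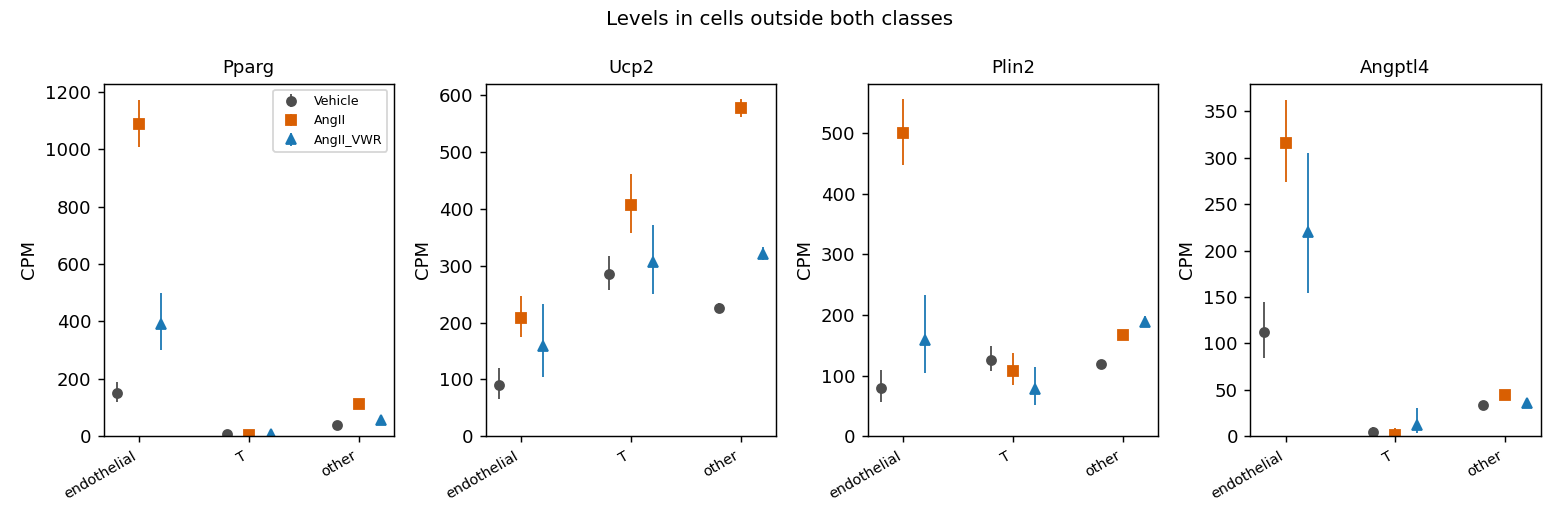
Levels of Pparg, Ucp2, Plin2 and Angptl4 in UMIs per 1000000 UMIs of the subset (CPM, linear axes from 0) in endothelial, T and other cells outside both classes, with 1 point per library and exact Poisson 95% intervals. Pparg in endothelial cells stands at 149.6, 1087 and 391 CPM in Vehicle, AngII and AngII_VWR, from 32, 91 and 41 cells.

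Other genes of the pathway, taken from lists chosen with earlier results of these data known, were described the same way. The genes named from each list were mostly picked by the size of their ratio. Of 29 further oxidation genes, 22 were tested in fibroblasts for AngII over Vehicle, with 1 called higher and none lower and a median of 0.09, and 19 in macrophages, with none called either way and a median of 0.03. Of all tested genes, 8.05% were called higher and 3.94% lower in fibroblasts, and 6.68% and 8.91% in macrophages. Eci2, Acadsb, Hsd17b10 and Acat1 were the abundant members furthest from the median gene in fibroblasts, and none was called. For AngII_VWR over AngII, none of 22 was called higher and 2 lower in fibroblasts, with a median of −0.20, and 1 of 18 was called higher and 1 lower in macrophages, with a median of −0.10. The shares of all tested genes called higher and lower were then 4.79% and 6.66% in fibroblasts and 9.6% and 8.27% in macrophages. Eci2, the isomerase of peroxisomes and mitochondria, was at 51.8 CPM with running against 75.1 CPM in AngII in fibroblasts. In macrophages Acsl5, another acyl-CoA synthetase, was at 46.9 CPM with running against 63.1 CPM in AngII.

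Of 16 PPAR partners and cofactors, 13 were tested in each class and comparison. In AngII over Vehicle 1 was called higher and 1 lower in fibroblasts and 1 lower in macrophages, with medians of 0.01 and −0.02. The shares of all tested genes called higher and lower were 8.05% and 3.94% in fibroblasts and 6.68% and 8.91% in macrophages. Nrip1, a corepressor of nuclear receptors, was at 307 CPM under AngII against 177 CPM in Vehicle in fibroblasts. In AngII_VWR over AngII 1 was called higher in each class and none lower, with medians of 0.02 and 0.11. There 4.79% of all tested genes were called higher and 6.66% lower in fibroblasts, and 9.6% and 8.27% in macrophages. The called gene was Sirt1, a deacetylase that acts on PGC-1α, at 32.6, 24.3 and 78.4 CPM in fibroblasts and 45.9, 25.4 and 74.7 CPM in macrophages. It stood at 40.1, 29.6 and 59.2 CPM in the rest, so AngII_VWR was the highest library in every class. Rxra, the partner receptor, was at 18.4, 23.8 and 25.02 CPM in fibroblasts and 26.4, 24.6 and 25.9 CPM in macrophages.

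Lipid uptake and storage were covered by a list of 22 genes, of which 15 were tested in fibroblasts for AngII over Vehicle, with 6 called higher and 1 lower and a median of 0.47, where 8.05% of all tested genes were called higher and 3.94% lower. In macrophages 13 were tested, with 3 called higher, 3 lower and a median of 0.27, where 6.68% of all tested genes were called higher and 8.91% lower. Fabp4, a fatty acid carrier and PPARγ target, was at 71.0 CPM under AngII against 15.0 CPM in Vehicle in fibroblasts. The rest held 4592 against 347 CPM of it, and the part of free RNA in the fibroblast value was not tested. G0s2, an inhibitor of lipolysis, was at 111 and 58.4 CPM, and Mgll, a monoacylglycerol lipase, at 84.8 and 157 CPM. In macrophages Cd36, a fatty acid receptor and PPARγ target, was lower in AngII, at 541 CPM against 1029.9 CPM, while Fabp5 was at 57.9 CPM against 7.79 CPM. In AngII_VWR over AngII none of 16 was called in fibroblasts, with a median of −0.03. Of all tested genes there, 4.79% were called higher and 6.66% lower. In macrophages 3 of 14 were called higher and none lower, with a median of 0.17. The shares of all tested genes in macrophages were 9.6% higher and 8.27% lower. Fabp5 was one of the 3 called higher, at 101 CPM against 57.9 CPM.

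Genes around pyruvate dehydrogenase, which Pdk4 controls, gave 1 call in the 4 comparisons. In AngII over Vehicle none of 9 tested in fibroblasts and none of 8 in macrophages was called, with medians of 0.07 in both. In AngII_VWR over AngII none of 9 was called in fibroblasts and 1 of 10 was called higher in macrophages, with medians of −0.11 and −0.13. The pyruvate carrier genes Mpc1 and Mpc2 were not called in either class. For fatty acid synthesis, 1 of 12 tested was called higher and 3 lower in fibroblasts for AngII over Vehicle, with a median of −0.16, and 1 higher and 1 lower of 9 in macrophages, with a median of 0.05. In AngII_VWR over AngII 1 of 12 was called higher and 1 lower in fibroblasts, with a median of 0.12. In macrophages 3 of 10 were called higher and 1 lower, with a median of 0.28. For both lists, the shares of all tested genes called higher and lower in AngII over Vehicle were 8.05% and 3.94% in fibroblasts. In macrophages they were 6.68% and 8.91%. In AngII_VWR over AngII they were 4.79% and 6.66% in fibroblasts and 9.6% and 8.27% in macrophages. Scd1, a desaturase, was at 96.9 CPM with running against 47.8 CPM in AngII in fibroblasts. Elovl5, an elongase, was at 46.1, 90.9 and 47.4 CPM in macrophages, highest in AngII.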

How the data were processed

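Droplet 3′ single-cell RNA libraries of mouse aortic adventitia were deposited as raw counts of UMIs per gene and barcode, made, per the file headers, with Cell Ranger 7.0.1 in Vehicle and in AngII and with 7.1.0 in AngII_VWR. The build was mm10, per the submitters' processing notes. Whether intronic reads or strand were used in counting is not given in the sources used here. Per the labels' protocols, tissue was digested with Liberase and elastase and each library was aimed at 10000 cells. Per-barcode totals started at 500, 501 and 500 UMIs, and the libraries held 165977330, 141570158 and 105679209 UMIs.

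Barcodes under 300 genes, under 500 UMIs or above 10% mitochondrial UMIs were removed. Each class's UMIs were added up per library and scaled to 1000000. Exact Poisson intervals were computed for levels and exact conditional binomial intervals for ratios. The pseudocount was 1 CPM. The calculations were tested on simulated data. The software was scanpy 1.11.5, scipy 1.17.1, numpy 2.4.6 and pandas 2.3.3 under Python 3.11.15.

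Scrublet's own threshold called 282, 160 and 0 doublets, so it had not worked in AngII_VWR and no caller was used in the reported values. Cells past both class limits were left out instead, and removal of the 1537, 784 and 2894 highest scores was an alternative. All members were described, with values at 5 CPM or more in a class and folds for called members and the 3 with the highest levels. Of each other list, up to 4 tested genes of at least 50 CPM were eligible by the size of their ratio, and mainly the called ones are printed; 1 gene of these lists is not reported here. The members and lists were chosen with earlier results of these data known. Gene positions came from GENCODE on GRCm38, which holds the mm10 sequence, and all 30 members matched.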

Additional observations from a re-analysis of the deposited data

Results flagged for a closer look

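Ucp2 differed between AngII_VWR and AngII in opposite directions in the 2 classes. Its relative log2 ratio was 0.68 in fibroblasts and −0.60 in macrophages, from 1 library per group, and the difference between the classes was not tested. Each call was kept in 8 of 13 alternatives, and without centring the macrophage value was −0.42. The levels were 9.45, 10.8 and 19.3 CPM in fibroblasts and 674, 841 and 627 CPM in macrophages, and the fibroblast level reached at most 3.09% of the macrophage level. Macrophage check markers in fibroblasts were at 0.559, 0.574 and 2.08% of their macrophage level. With 5% of UMIs subtracted as free RNA the fibroblast value turned to −0.10. With cells past both class limits included it was 0.43 and not called.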

How the results depend on the processing

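The 8 counts of called members were recomputed under 13 alternatives, 12 of them planned and 1, equal weights for the subsets, chosen after seeing the data. Of 104 values 87 stayed within 1.5 times the reported count and 17 did not. For AngII_VWR over AngII in macrophages, the count higher (1) became 2 without centring and without the CPM floor, and 0 with a pseudocount of 5 CPM or a floor of 20 CPM. The count lower there (5) became 3 without centring, with the pseudocount of 5 and with the floor of 20. The shares of all tested genes called there moved too, from 9.6% higher and 8.27% lower. They were 15.4% and 5.06% without centring and 6.16% and 6.21% with the pseudocount of 5. Without the CPM floor they were 9.75% and 7.70%, and with the floor of 20 they were 6.85% and 7.67%. For AngII_VWR over AngII in fibroblasts, the count higher (2) became 1 with the pseudocount of 5, with cells past both limits included and with equal subset weights, and 0 with the floor of 20. The count lower there (3) became 1 with the pseudocount of 5. The shares of all tested genes called higher and lower there, reported as 4.79% and 6.66%, moved too. They were 3.01% and 4.56% with the pseudocount of 5 and 3.68% and 6.86% with the floor of 20. With cells past both limits included they were 4.89% and 6.64%. For AngII over Vehicle in macrophages, the count lower (1) became 0 with the pseudocount of 5 or the floor of 20 and 2 after removal of the highest Scrublet scores or subtraction of 5% free RNA, and the count higher (1) became 3 with cells thinned to 1000 UMIs. With that thinning 9.85% of all tested genes were called higher, in place of 6.68%. The share called lower, reported as 8.91%, was 6.71% with the pseudocount of 5 and 7.24% with the floor of 20. It was 6.07% after removal of the highest Scrublet scores and 8.17% with 5% free RNA subtracted. A larger pseudocount shrinks ratios of low genes and a higher floor leaves fewer genes to test. For the other settings the cause was not tested. Of the 16 member calls, 5 were kept in all 13 alternatives: Acaa1a and Acsl4 in fibroblasts (AngII_VWR over AngII and AngII over Vehicle, respectively), Ppard in macrophages (AngII_VWR over AngII) and Pparg in macrophages (both comparisons). Pdk4 in fibroblasts ranged from 0.88 to 1.76 in relative log2 ratio, and 12 of 13 alternatives kept the call. Ucp2 in fibroblasts turned from 0.68 to −0.10 with 5% free RNA subtracted, the one of 208 member values that changed sign. Thinning left out 435, 125 and 832 fibroblasts and 87, 22 and 158 macrophages below 1000 UMIs. Members under 5 CPM in both libraries of a pair were not tested. No paired analysis was possible because each group was 1 library and no test was run.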
